A study of Mus musculus with 6 samples.

Results

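The proteasome was examined in mouse bone marrow monocytes (BMDM) and brainstem microglia (BSM), using the genes whose symbol starts with Psma to Psmg followed by a digit. These symbols matched 49 of the 35237 genes of a Cufflinks FPKM table and 52 of the 36536 genes of an ALEXA-Seq table made from the same libraries. FPKM is a level per transcript length and library size, so it can be compared between genes, though less surely for members with near-identical copies, taken up below. The length scaling of the ALEXA-Seq values is not given, and levels of different genes were not compared on that scale. Ratios of genes within a library were read only for their difference between the cell types. Of the 49 genes, 47 encode subunits, caps, an inhibitor or assembly chaperones. Psme2b-ps is a copy of Psme2 with a pseudogene symbol, and Psmc3ip, a recombination factor, matched by its symbol alone. The ALEXA-Seq table held Psmb5-ps, Psmb6-ps and Psmb7-ps2 in addition, and these were at 0 in all 6 libraries apart from 0.788 for Psmb6-ps in BSM replicate 2. Psmb11, the thymus-specific catalytic subunit, was not analysed here.

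There were 3 BMDM libraries from CD11b+ CD45high CD115+ Ly6G- marrow cells and 3 BSM libraries from CD11b+ CD45low CD115low Ly6G- brainstem cells, all sorted by flow cytometry from C57BL/6 mice aged 6 weeks. Each library came from a pool of mice, so that the spread between libraries is a spread between pools. The labels give male for replicate 1 and female for replicates 2 and 3 of both cell types. RNA was amplified from small amounts, and neither table holds read counts.

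The 26S proteasome degrades proteins that carry ubiquitin chains. Its 20S core is a barrel of alpha and beta rings with the catalytic sites on the beta subunits, and the 19S cap at its ends binds, unfolds and feeds in the substrate with a ring of ATPases. In immune cells, interferon-responsive beta subunits and the PA28 cap can replace the standard parts and change the peptides made for MHC class I.

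Summed FPKM over all genes was 163199 to 194184 in BMDM and 68288 to 75021 in BSM, and the median log2 fold change of the 6364 genes tested was 0.81 in favour of BMDM. A proteasome gene with a smaller change than this was therefore lower in BMDM relative to the typical gene. BSM replicate 1 stood apart, with 472 of the genes that reach FPKM 3 somewhere listed at 0, against 51 to 115 in the other 5 libraries. The RNA quality measurements that accompany the study give this library the lowest RNA integrity and the lowest RNA concentration, and the part of RNA quality in its values was not tested. The labelled cell types showed in their markers, whose summed FPKM was 433 to 472 in BMDM and 1.05 to 1.55 in BSM for 5 monocyte genes, and 17.3 to 19.3 against 733 to 824 for 7 microglia genes. Other lists also moved with the cell type. The 7 cycling genes in the table summed to 249 to 326 FPKM in BMDM and 9.61 to 17.9 in BSM, 8 granulocyte and progenitor genes to 49.2 to 346 and 4.72 to 11.3, 6 erythroid genes to 11.5 to 75.4 and 0 to 0.200, and 6 immediate early genes to 15.1 to 39.8 and 208 to 327. BMDM replicate 2 stood apart for the granulocyte and progenitor genes, with Mpo at 181 FPKM against 32.7 and 67.1 and Ngp at 77.1 against 2.44 and 3.44 in BMDM replicates 1 and 3. Cd34 made up nearly all of that list's sum in BSM and was its one gene with higher FPKM there (4.72, 9.95 and 11.3 against 0.445, 0.559 and 0.922 in BMDM). The part of these in the differences given next was not tested, and fewer cells of a type cannot be told apart from less RNA per cell.

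Proteasome genes were higher in BMDM. Of the 36 members that reached FPKM 3 in at least 1 library, 27 were higher in BMDM and 0 were higher in BSM by limma on log2(FPKM + 1) with Benjamini-Hochberg adjustment over all genes. Among all genes tested 45.3% were higher in BMDM and 9.22% in BSM. No member had an unadjusted p under 0.05 in favour of BSM. The median log2 fold change of the tested members was 1.49, which is 0.68 above the median of all genes. The tested members include Psme2b-ps. A member with low values in BSM could pass the filter through BMDM alone. Without BMDM replicate 2 the count was 21 of 36, against 36.3% of all genes. A member that did not pass is not thereby shown to have had equal levels. In 30 of the 36 the lowest BMDM library was above the highest BSM library, against 55.2% of all genes tested, and in 0 of the 36 the groups were apart the other way, against 11.6%. By ALEXA-Seq values 28 of 40 tested members were higher in BMDM, against 37.1% of its genes, and 0 were higher in BSM, against 10.9%, with a median of 1.79. The groups were apart with BMDM above in 34 of these 40, against 51.5%, and with BSM above in 0, against 14.6%. None of the 40 had an unadjusted p under 0.05 in favour of BSM.

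How many members passed depended on how the libraries were scaled to each other. With quantile normalization 15 of 36 members passed the test in favour of BMDM, against 21.7% of all genes, and with every library scaled to the same sum 4 of 36 did (Psma2, Psma7, Psmb2 and Psmb4), against 15.2%. At an unadjusted p under 0.05, 1 member was higher in BSM under quantile normalization in each table (Psmf1), and 2 were with equal sums (Psmf1 and Psmc6), while 0 passed after adjustment. Under these scalings the members' median was 0.72 and 0.49, while that of all genes was 0.02 and -0.23. The distance between the members and the typical gene was 0.60 to 0.84 in the FPKM fits that kept the FPKM minimum of 3 and all 6 libraries. As a share of a library's total FPKM, the members made up 0.293, 0.357 and 0.323% in BMDM against 0.259, 0.239 and 0.249% in BSM, and here too the groups did not overlap.

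**Figure D1:**
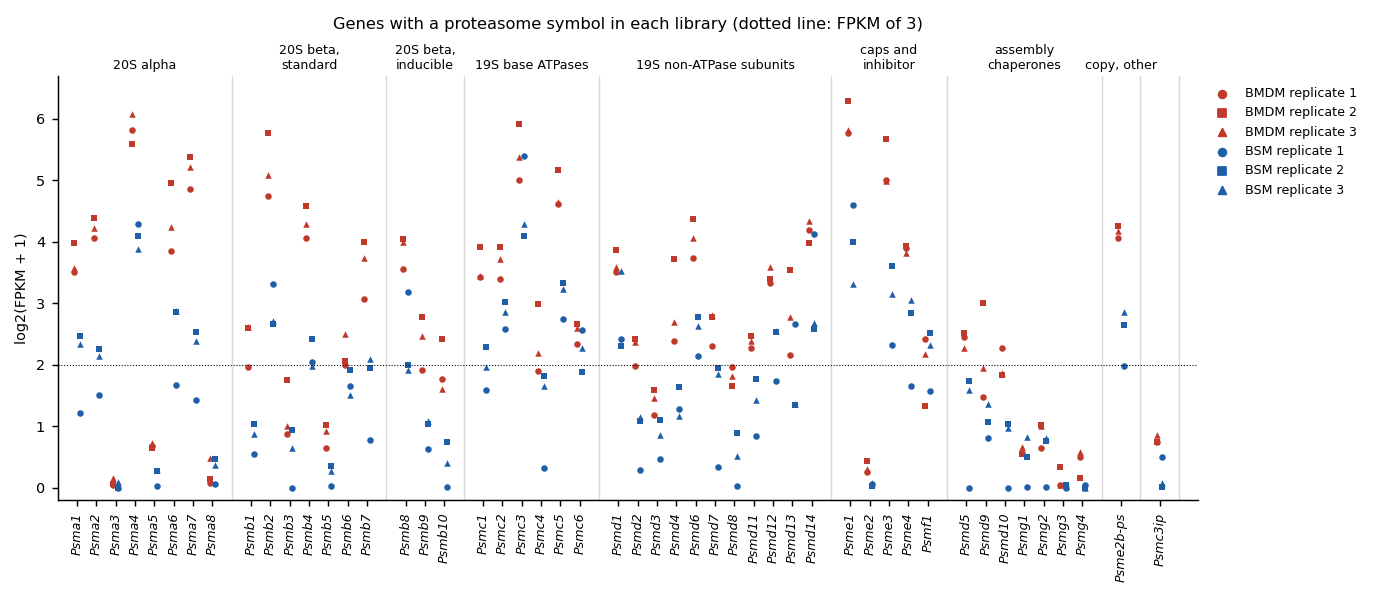
Levels of the 49 genes in each library as log2(FPKM + 1), grouped by subcomplex, with BMDM in red, BSM in blue and one symbol per replicate number. Most red points lie above the blue ones, BSM replicate 1 has points at 0 for several genes, and Psma3, Psma5, Psmb5 and Psme2 lie near 0 in all 6 libraries.

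**Figure D2:**
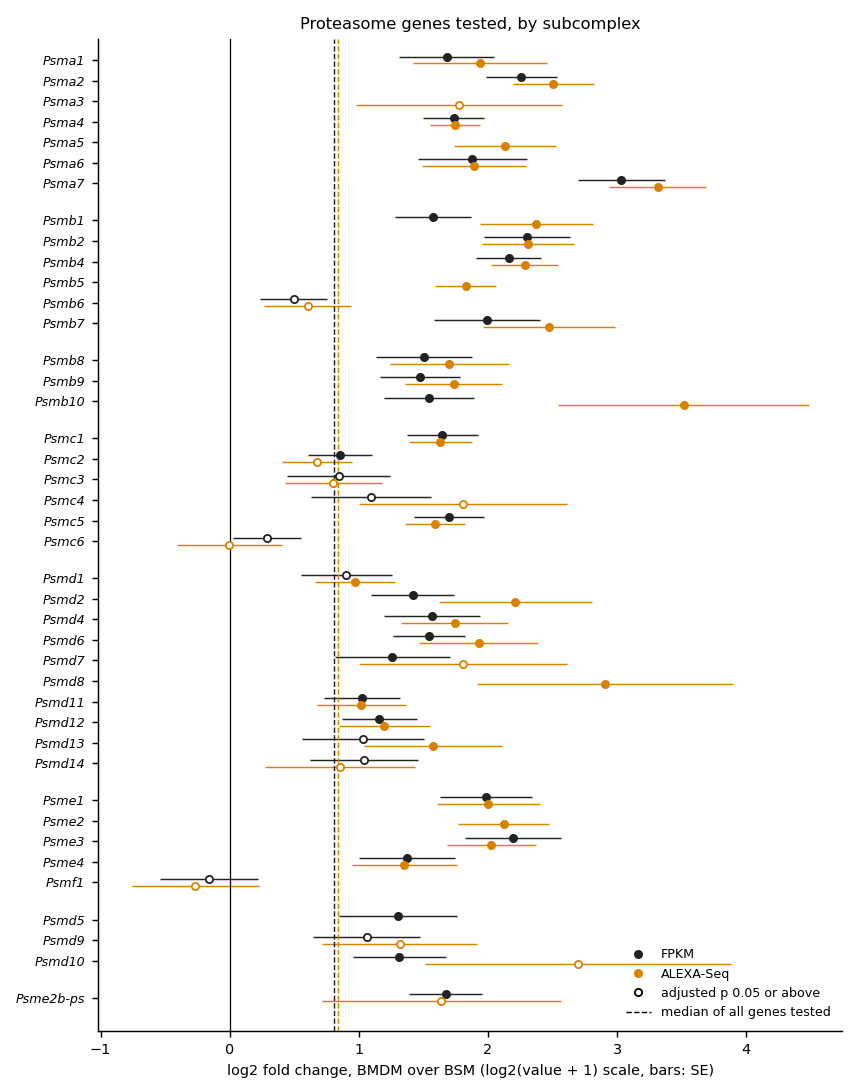
Log2 fold change of BMDM over BSM with its standard error (bars) for each tested member, from FPKM (black) and ALEXA-Seq values (orange), where filled points passed adjusted p under 0.05 by limma and dashed lines mark the medians of all genes tested. Members of the 20S rings lie mostly to the right of the dashed lines, while Psmb6, Psmc6 and Psmf1 lie to the left.

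The alpha ring forms the outer gates of the 20S core. All 5 alpha genes that reached FPKM 3 were higher in BMDM, against 45.3% of all genes, with a median log2 fold change of 1.88. Psma7 (mm9 chr2:179771078-179777138) showed the largest change of the tested members on the log2(FPKM + 1) scale. Its FPKM was 27.9, 40.5 and 36.1 in BMDM and 1.69, 4.76 and 4.24 in BSM. Its log2 fold change was 3.03 (SE 0.34, adjusted p = 0.00027, limma). Psma1 showed the smallest difference of the 5 on that scale, with FPKM 10.4, 14.8 and 10.9 in BMDM and 1.33, 4.56 and 4.04 in BSM (log2 fold change 1.68, SE 0.37, adjusted p = 0.00634, limma). With a pseudocount of 0.1 the change of Psma4 was smaller than that of Psma1 (1.79 against 1.99), as it was in ALEXA-Seq values (1.75 against 1.94). BMDM and BSM did not overlap for Psma7 or Psma1. All 5 also passed under quantile normalization, against 21.7% of all genes, and Psma7 kept a log2 fold change of 2.21 there. With equal sums 2 of the 5 passed (Psma2 and Psma7), against 15.2%. Psma8, the testis-specific alpha subunit, stayed under the filter between 0.0396 and 0.400 FPKM, and its groups overlapped. Psma3 and Psma5 were also under the filter, and are taken up with their copies.

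Of the standard beta subunits, 4 of the 5 tested were higher in BMDM, against 45.3% of all genes, with a median of 1.99. With equal sums 2 of the 5 passed (Psmb2 and Psmb4), against 15.2%. Psmb2, a non-catalytic subunit, had FPKM 25.8, 53.7 and 32.8 in BMDM and 8.94, 5.36 and 5.55 in BSM (log2 fold change 2.30, SE 0.33, adjusted p = 0.000959, limma). The groups were well separated, although BSM replicate 1 was the highest of its group. Psmb4, also structural, changed by 2.16, and Psmb1 by 1.57. Psmb3 was under the filter, at 0.828, 2.37 and 1.02 FPKM in BMDM and 0, 0.923 and 0.564 in BSM, where the groups overlapped.

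The catalytic subunits differed among themselves. Psmb6, which carries the caspase-like site, had FPKM 3.00, 3.17 and 4.69 in BMDM and 2.13, 2.79 and 1.84 in BSM. The groups lay side by side without overlap in FPKM, and the difference did not pass the test (log2 fold change 0.50, SE 0.26, adjusted p = 0.136, limma). Its direction turned with the scaling, to -0.27 under quantile normalization. In ALEXA-Seq values the Psmb6 groups overlapped and the difference did not pass either (log2 fold change 0.60, SE 0.34, adjusted p = 0.174, limma). Psmb7, with the trypsin-like site, had FPKM 7.37, 14.9 and 12.3 in BMDM and 0.706, 2.86 and 3.25 in BSM (log2 fold change 1.99, SE 0.41, adjusted p = 0.00512, limma). Its lowest BMDM library was above its highest BSM library. Psmb5, with the chymotrypsin-like site, was listed at 0.564, 1.03 and 0.902 FPKM in BMDM and 0.0225, 0.283 and 0.216 in BSM, under the filter. Its ALEXA-Seq values were 143, 188 and 161 in BMDM and 50.3, 43.1 and 42.7 in BSM. On that scale Psmb5 was higher in BMDM (log2 fold change 1.83, SE 0.23, adjusted p = 0.000971, limma).

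The inducible subunits of the immunoproteasome were all higher in BMDM, against 45.3% of all genes. Their log2 fold changes were between 1.47 and 1.54 on the log2(FPKM + 1) scale, which understates changes of low genes. Mean FPKM in BMDM was 2.99 times that in BSM for Psmb8, 4.86 times for Psmb9 and 8.76 times for Psmb10. Psmb9 reached the filter in BMDM alone, and Psmb10 in BMDM replicate 2 alone. In the mm9 build of the files Psmb8 (chr17:34335313-34338399) and Psmb9 (chr17:34318933-34324318) lie on the same chromosome, while Psmb10 lies at chr8:108459642-108461987. Psmb8, which takes the place of Psmb5, had FPKM 10.8, 15.6 and 14.9 in BMDM and 8.04, 2.97 and 2.79 in BSM (log2 fold change 1.51, SE 0.37, adjusted p = 0.0111, limma). BSM replicate 1 was 2.79 times the mean of the other BSM libraries, and without it the log2 fold change was 1.91 (adjusted p = 0.000533, limma). Psmb9, which takes the place of Psmb6, had FPKM 2.78, 5.86 and 4.53 in BMDM and 0.545, 1.04 and 1.12 in BSM (log2 fold change 1.47, SE 0.31, adjusted p = 0.00523, limma). Psmb10, which takes the place of Psmb7, had FPKM 2.40, 4.35 and 2.05 in BMDM and 0.0123, 0.670 and 0.322 in BSM (log2 fold change 1.54, SE 0.35, adjusted p = 0.00725, limma). BMDM lay above BSM in every library for the 3 genes. Under quantile normalization none of the 3 passed the test in FPKM, with adjusted p of 0.115 for Psmb8, 0.0684 for Psmb9 and 0.0803 for Psmb10 (limma). In ALEXA-Seq values the log2 fold changes of Psmb8, Psmb9 and Psmb10 were 1.70, 1.73 and 3.51 (adjusted p = 0.0219, 0.00903 and 0.0235, limma). Under quantile normalization of those values Psmb10 passed (2.29, adjusted p = 0.00717, limma). Psmb8 and Psmb9 did not (adjusted p = 0.0821 and 0.0740, limma).

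Because a ratio of a pair of genes within a library does not depend on how the libraries are scaled, each inducible subunit was set against the subunit it replaces. The exact two-sided permutation test of 3 against 3 libraries cannot go below p = 0.1, so none of the 6 ratios compared could pass. The FPKM ratio of Psmb9 to Psmb6 was 0.926, 1.85 and 0.967 in BMDM and 0.255, 0.374 and 0.610 in BSM. The ratio was higher in each BMDM library than in any BSM library, and the mean log2 ratios differed by 1.61 (exact permutation p = 0.1, 0.6 after Benjamini-Hochberg adjustment over the 6 ratios). In ALEXA-Seq values the same difference was 1.19 and the groups again did not overlap. The ratio of Psmb10 to Psmb7 was 0.326, 0.292 and 0.167 in BMDM and 0.0175, 0.234 and 0.0990 in BSM, where the groups overlapped (difference 1.77, exact permutation p = 0.2, adjusted 0.6). The difference was 0.72 without BSM replicate 1. The ratio of Psmb8 to Psmb5 was 19.1, 15.1 and 16.5 in BMDM and 357, 10.5 and 12.9 in BSM (difference -1.11, exact permutation p = 1, adjusted 1), and BSM replicate 1 alone set its sign, since without that library the difference was 0.53. In ALEXA-Seq values the difference of this ratio was -0.13, and 0.31 without that library. Psmb5 was near 0 in FPKM but not in ALEXA-Seq values (0.0225 FPKM and 50.3 in BSM replicate 1). The size of its FPKM ratio to Psmb8 is therefore uncertain, and Psmb5 is taken up below with its copy.

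**Figure D3:**
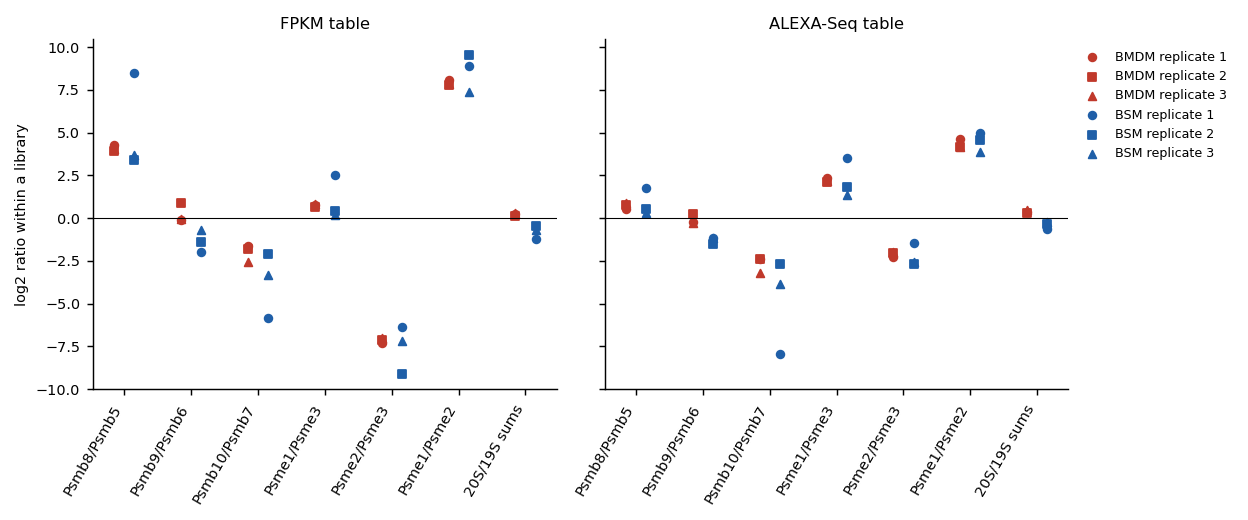
Log2 ratio of 2 proteasome genes within each library, and of summed 20S to summed 19S subunits, from FPKM (left) and ALEXA-Seq values (right), with BMDM in red and BSM in blue. Psmb9 over Psmb6 and the 20S over 19S sums separate the cell types in both tables, whereas the other ratios overlap between the groups.

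The base of the 19S cap is a ring of 6 ATPases, of which 3 were higher in BMDM in FPKM, against 45.3% of all genes. The median log2 fold change of the 6 was 0.98, close to the 0.81 of all genes. With equal sums 0 of the 6 passed, against 15.2% of all genes. In ALEXA-Seq values 2 of the 6 were higher in BMDM, against 37.1% of its genes. Psmc5 showed the largest difference on the log2(FPKM + 1) scale, with FPKM 23.4, 34.9 and 23.9 in BMDM and 5.73, 9.03 and 8.43 in BSM (log2 fold change 1.70, SE 0.27, adjusted p = 0.00155, limma). Psmc1 followed with 1.65. Psmc6 showed the smallest on that scale, with FPKM 4.03, 5.31 and 5.05 in BMDM and 4.93, 2.67 and 3.81 in BSM (log2 fold change 0.29, SE 0.26, adjusted p = 0.370, limma), so that the groups overlapped. Its ALEXA-Seq difference was -0.002 (SE 0.41), and quantile normalization gave -0.40 in FPKM. Psmc3, the most abundant ATPase, reached FPKM 31.1, 59.5 and 40.4 in BMDM and 41.0, 16.1 and 18.4 in BSM. BSM replicate 1 lay within the BMDM range, and the adjusted p moved from 0.106 with all libraries to 0.00919 without it (limma). Psmc4 had 2.73, 6.89 and 3.55 FPKM in BMDM and 0.256, 2.51 and 2.13 in BSM and did not pass (adjusted p = 0.0773, limma), although its groups did not overlap.

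The non-ATPase subunits of the 19S cap include the ubiquitin receptors, the lid and the deubiquitinase. Of the 9 tested, 6 were higher in BMDM, against 45.3% of all genes, with a median log2 fold change of 1.16. Under quantile normalization 1 of the 9 passed (Psmd6), against 21.7% of all genes, and with equal sums 0 did, against 15.2%. Psmd4, a ubiquitin receptor, had FPKM 4.23, 12.2 and 5.47 in BMDM and 1.43, 2.10 and 1.26 in BSM (log2 fold change 1.57, SE 0.37, adjusted p = 0.009, limma), and its adjusted p was 0.0749 under quantile normalization. Psmd1, a large scaffold subunit, had 10.4, 13.6 and 11.0 in BMDM and 4.35, 3.93 and 10.5 in BSM, where BSM replicate 3 lay within the BMDM range (log2 fold change 0.90, SE 0.35, adjusted p = 0.0605, limma). Psmd14, the deubiquitinase of the lid, had 17.2, 14.7 and 19.2 in BMDM and 16.4, 4.98 and 5.43 in BSM. Its adjusted p was 0.0656 with all libraries and 0.000661 without BSM replicate 1, which was 3.16 times the mean of the other BSM libraries. Psmd13, another lid subunit, behaved likewise, with 3.45, 10.7 and 5.85 FPKM in BMDM against 5.36, 1.53 and 1.58 in BSM (adjusted p = 0.0978 with and 0.0188 without that library, limma). In ALEXA-Seq values Psmd1 and Psmd13 passed without overlap (log2 fold change 0.97 and 1.57, adjusted p = 0.0401 and 0.0471, limma). Psmd14 did not pass there (0.86, adjusted p = 0.250, limma). Under quantile normalization of those values Psmd1 and Psmd13 did not pass (adjusted p = 0.491 and 0.224, limma). Psmd3 and Psmd8 were under the filter, the first at 1.27, 2.00 and 1.75 in BMDM and 0.383, 1.15 and 0.805 in BSM, the second at 2.90, 2.14 and 2.53 against 0.0188, 0.863 and 0.439. Their groups did not overlap in FPKM.

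The summed levels of core and cap moved apart. The 14 standard 20S genes without Psma8 summed to 1.18, 1.10 and 1.23 times the FPKM of the 17 genes of the 19S cap in BMDM and to 0.437, 0.730 and 0.610 times in BSM. This ratio averaged 1.17 ± 0.0702 in BMDM and 0.592 ± 0.147 in BSM (SD, n = 3 each), without overlap, and is independent of the scaling between libraries. In ALEXA-Seq values, where the weight of each gene in a sum rests on the length scaling that is not given, it was 1.30 ± 0.0625 and 0.765 ± 0.0978 (SD, n = 3 each). The ratio of the medians of value + 1 of the same genes was also higher in each BMDM library than in any BSM library, in both tables. The added 1 makes that ratio of medians depend on the scaling. These ratios are given as a description, and no test was made of them.

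Beside the 19S cap, the 20S core can carry PA28, made of Psme1 and Psme2 in the cytosol and of Psme3 in the nucleus, or PA200, encoded by Psme4. Psme1 (chr14:56197311-56200364) and Psme2 (chr14:56206281-56209778) lie on the same chromosome in mm9. Psme1 was the most abundant member in BMDM by mean, with FPKM 53.3, 77.1 and 55.3, and had 23.3, 15.0 and 8.89 in BSM (log2 fold change 1.98, SE 0.35, adjusted p = 0.00258, limma). Psme3 had 31.1, 49.9 and 30.7 in BMDM and 4.00, 11.1 and 7.84 in BSM (log2 fold change 2.20, SE 0.37, adjusted p = 0.00201, limma). Psme4 had 13.9, 14.3 and 13.1 in BMDM and 2.14, 6.15 and 7.30 in BSM (log2 fold change 1.37, SE 0.37, adjusted p = 0.0164, limma), and its adjusted p was 0.233 under quantile normalization. The groups were apart for each of the 3 caps. Psmf1, an inhibitor of the 20S core, was the one tested member with a lower FPKM estimate in BMDM, at 4.38, 1.53 and 3.54 FPKM against 1.98, 4.75 and 4.00 in BSM. The groups overlapped and the test did not separate them (log2 fold change -0.16, SE 0.38, adjusted p = 0.743, limma). Leaving out BMDM replicate 2 turned the estimate to 0.16.

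The ratio of Psme1 to Psme3 in FPKM was 1.71, 1.55 and 1.80 in BMDM and 5.82, 1.35 and 1.13 in BSM (log2 difference -0.30, exact permutation p = 1, adjusted 1), and without BSM replicate 1 the difference was 0.45. The ratio of Psme2 to Psme3 differed by 0.40 (exact permutation p = 0.8, adjusted 1) and that of Psme1 to Psme2 by -0.70 (exact permutation p = 0.4, adjusted 0.8). Both reversed when the FPKM of the copy of Psme2 was added to it, to -0.47 and 0.17. At 3 against 3 libraries none of these ratios could pass the test, which does not show that the cytosolic and nuclear caps differed alike between the cell types.

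The assembly chaperones help the rings and the base to form and are absent from the finished particle. Of 7, the 3 that also have a Psmd symbol reached the filter, and 2 of those were higher in BMDM, against 45.3% of all genes. Psmd10, or gankyrin, had FPKM 3.83, 2.56 and 2.63 in BMDM and was listed at 0, 1.06 and 0.971 in BSM (log2 fold change 1.31, SE 0.36, adjusted p = 0.0165, limma). Psmd5 had 4.44, 4.69 and 3.84 in BMDM and 0, 2.32 and 2.02 in BSM (log2 fold change 1.30, SE 0.46, adjusted p = 0.0425, limma). Psmd9 had 1.77, 7.06 and 2.87 in BMDM and 0.751, 1.11 and 1.58 in BSM and did not pass (adjusted p = 0.0599, limma). None of the 3 passed under quantile normalization, against 21.7% of all genes. In ALEXA-Seq values Psmd10 did not pass (log2 fold change 2.70, SE 1.18, adjusted p = 0.0982, limma), nor did Psmd9 (adjusted p = 0.108, limma). Psmd5 was not among the genes tested there. The 4 chaperones of the 20S core were low. Psmg1 had 0.481, 0.470 and 0.585 in BMDM and 0.0106, 0.409 and 0.779 in BSM. Psmg2 had 0.571, 1.02 and 1.01 in BMDM and 0.0139, 0.697 and 0.745 in BSM. Both overlapped between the groups, with BSM replicate 1 as the lowest library. Psmg3 did not exceed 0.261 FPKM in any library. Psmg4 had 0.418, 0.117 and 0.493 in BMDM and 0.0307, 0 and 0 in BSM. None of the 4 reached the filter. In the fit without an FPKM minimum none of them passed, the lowest adjusted p being 0.0641 for Psmg4 (limma).

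Several members were near 0 in FPKM but clearly present in ALEXA-Seq values. For the 7392 genes with a mean ALEXA-Seq value of at least 10, the log2 of FPKM per ALEXA-Seq unit had a median of -3.92 and a 5th percentile of -5.07. It was -10.49 for Psma3, -8.68 for Psme2, -7.70 for Psmb5 and -6.36 for Psma5. A nucleotide search of the GENCODE M21 transcripts found for each of the 4 a gene elsewhere in the genome with at least 95% identity over at least 500 bases. Such a copy was not particular to the low members, since Psma4, Psmb3, Psmd2 and Psmd11 also had one at values of -4.35, -4.12, -4.69 and -3.90, and Psmc1 had one at -5.64. Psma3 matched Gm13835 at 100% over 665 bases, Psme2 matched Psme2b, the Psme2b-ps of the tables, at 99.4% over 794 bases, Psmb5 matched Gm3375 at 98.9% over 796 bases and Psma5 matched Gm8394 at 98.6% over 952 bases. Stretches of coding sequence from GENCODE M21 (GRCm38) are printed to show how close gene and copy are. A read of 100 bases inside a stretch with 0 differences cannot be assigned to one of the 2 genes by its own sequence. In the Psmb5 stretch the 2 differences are placed so that such a read meets a difference. The stretches are in lower case, and capitals mark the bases at which gene and copy differ. Coding bases 1 to 180 of Psme2 (chr14:55587441-55591113, minus strand) and Psme2b (chr11:48945354-48946190, minus strand), both protein-coding in that annotation, hold 0 differences.
Psme2 and Psme2b: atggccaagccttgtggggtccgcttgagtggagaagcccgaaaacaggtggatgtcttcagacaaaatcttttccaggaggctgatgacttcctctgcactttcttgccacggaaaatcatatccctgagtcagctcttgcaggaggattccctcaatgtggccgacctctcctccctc
Coding bases 104 to 283 of Psma3 hold 0 differences from the processed pseudogene Gm13835 (chr6:31141979-31142663, minus strand).
Psma3 and Gm13835: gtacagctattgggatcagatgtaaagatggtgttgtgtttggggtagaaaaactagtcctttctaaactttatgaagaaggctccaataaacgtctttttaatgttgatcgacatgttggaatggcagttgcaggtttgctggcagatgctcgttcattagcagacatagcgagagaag
Coding bases 1 to 180 of Psmb5 hold 2 differences from the processed pseudogene Gm3375 (chr7:3181093-3181888, plus strand).
Psmb5: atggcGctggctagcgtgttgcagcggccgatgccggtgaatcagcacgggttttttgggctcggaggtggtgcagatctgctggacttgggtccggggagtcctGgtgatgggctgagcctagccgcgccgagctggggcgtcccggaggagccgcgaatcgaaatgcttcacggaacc
Gm3375: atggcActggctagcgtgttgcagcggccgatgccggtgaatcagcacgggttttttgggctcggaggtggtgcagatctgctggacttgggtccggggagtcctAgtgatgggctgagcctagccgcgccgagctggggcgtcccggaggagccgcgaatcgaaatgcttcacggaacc

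Some copies were listed at higher FPKM than the member they match. Psme2b-ps was listed at 15.8, 18.1 and 17.1 in BMDM and 2.95, 5.25 and 6.27 in BSM, whereas Psme2 itself was listed at 0.194, 0.357 and 0.238 in BMDM and 0.0487, 0.0205 and 0.0534 in BSM. Gm13835 was listed at 13.99, 17.8 and 22.1 in BMDM and 0.846, 4.03 and 6.06 in BSM, and its ALEXA-Seq value was 0 in all 6 libraries. Psma3 showed the opposite, with 0.0287, 0.0430 and 0.113 FPKM in BMDM and 0, 0 and 0.0740 in BSM, and ALEXA-Seq values of 99.0, 85.3 and 85.6 in BMDM and 5.85, 43.5 and 60.5 in BSM. Psma5 had 0.600, 0.560 and 0.656 FPKM in BMDM and 0.0271, 0.210 and 0.226 in BSM, and ALEXA-Seq values of 42.5, 63.7 and 47.6 against 7.26, 12.4 and 13.7. Gm8394 was listed at 1.63, 2.99 and 1.83 FPKM in BMDM and 0.311, 0.281 and 0.497 in BSM. Gm3375 had no row that could be matched by symbol, so that its share of Psmb5 was not tested. Which gene the reads came from cannot be told apart from these values.

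With the FPKM of the copies added to the member they match, 38 members were tested and 28 were higher in BMDM, against 45.3% of all genes. Psma3 then had a log2 fold change of 2.21 (SE 0.48, adjusted p = 0.00646, limma), Psma5 of 1.46 and Psme2 of 1.68, and each was higher in BMDM. Psmd11, a lid subunit, was the one member to lose its call in this fit. Its log2 fold change went from 1.03 (adjusted p = 0.0199) to 0.47 (adjusted p = 0.129, limma). The added transcript, which shares 1501 bases with it at 97.9% identity, was listed at 3.44 FPKM in BSM replicate 1 and at 0.284 to 0.826 in the other libraries. In ALEXA-Seq values Psma5, Psmb5 and Psme2 were higher in BMDM, by 2.13, 1.83 and 2.12 on the log2 scale. Psma3 was not called there (log2 fold change 1.77, SE 0.80, adjusted p = 0.105, limma), and without BSM replicate 1 it was 0.79 (adjusted p = 0.0202, limma).

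**Figure D4:**
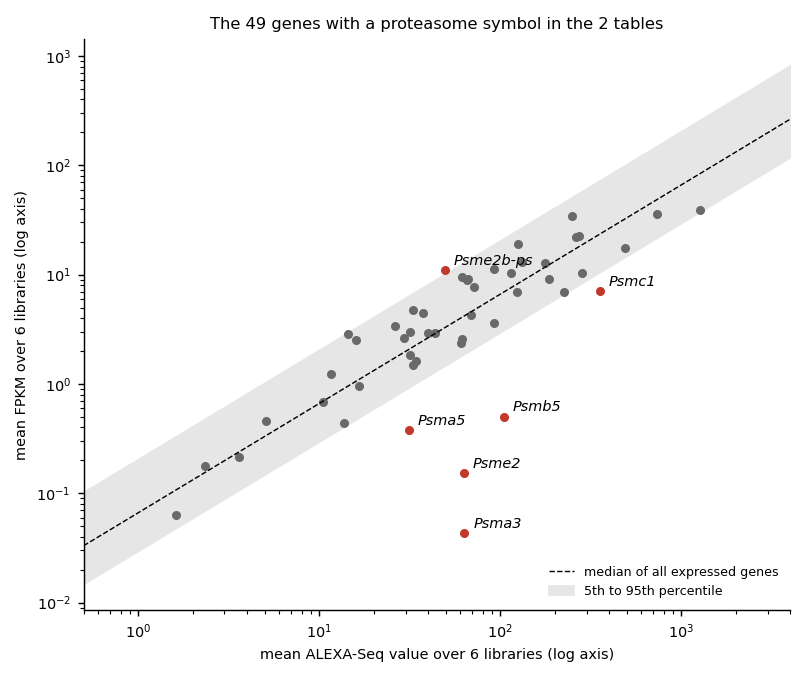
Mean FPKM against mean ALEXA-Seq value over the 6 libraries for the 49 genes, on log axes, with the median (dashed) and the 5th to 95th percentile (grey) of all genes with a mean ALEXA-Seq value of at least 10. Psma3, Psme2, Psmb5 and Psma5 (red) fall far below the grey band, Psmc1 slightly below it, and Psme2b-ps slightly above the band.

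The spread among the BSM libraries was mostly that of replicate 1 against the others. Over the 38 members with at least 0.5 FPKM in both other BSM libraries, its median ratio to their mean was 0.507, and it was below both in 26 members and above both in 8. Replicates 2 and 3 differed from each other by a ratio between 0.375 and 1.69 over the same members. Replicate 1 was over 2 times their mean for Psmb8, Psmc3, Psmd13 and Psmd14 and under 0.1 times for Psmb3, Psmd5, Psmd7, Psmd10 and Psmg2. Genes of one subcomplex thus stood on opposite sides, as Psmc3 at 41.0 FPKM and Psmc4 at 0.256 did within the ATPase ring. Without this library 30 of 36 members were higher in BMDM, against 50.2% of all genes, so the direction of the members did not rest on it.

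**Figure D5:**
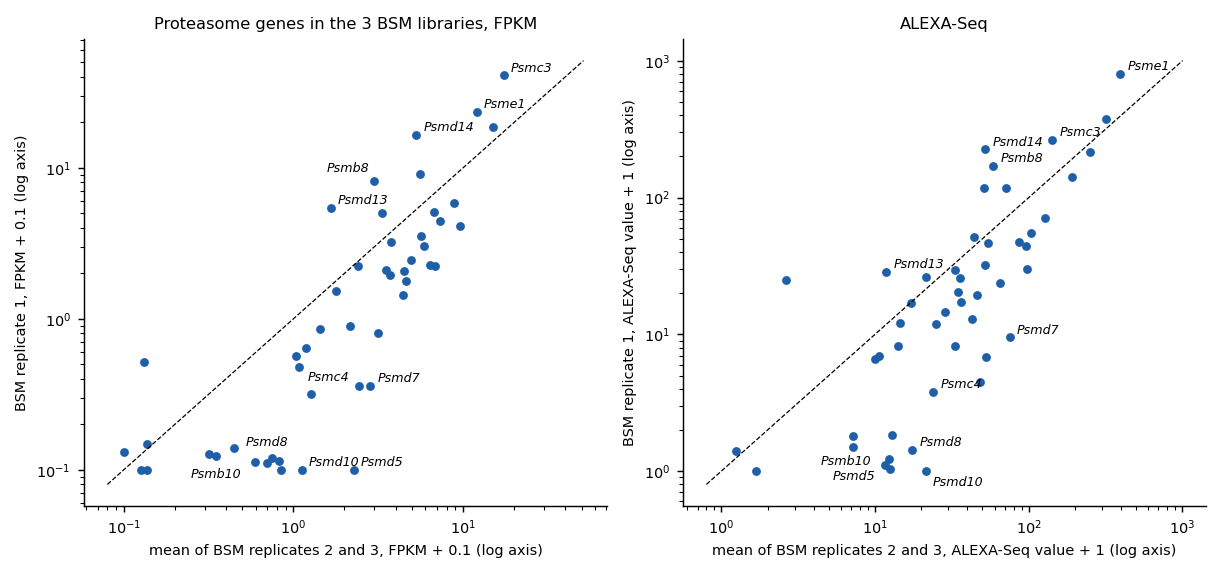
Each gene's value in BSM replicate 1 against the mean of BSM replicates 2 and 3, as FPKM + 0.1 (left) and ALEXA-Seq value + 1 (right), on log axes with the line of equality. Most members lie below the line, Psmb8, Psmc3, Psmd13 and Psmd14 lie above it, and Psmd5 and Psmd10 lie at or near 0 in replicate 1 in both tables.

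Among all members, Psme1, Psma4, Psmc3, Psmb2 and Psme3 had the highest mean FPKM in BMDM, at 61.9 ± 13.2, 56.2 ± 9.49, 43.7 ± 14.5, 37.4 ± 14.5 and 37.2 ± 11.0 (SD, n = 3 each). Neighbours in this order differed by less than the larger of their SDs. In BSM the order began with Psmc3 at 25.2 ± 13.7, Psma4 at 16.1 ± 2.41 and Psme1 at 15.7 ± 7.23 (SD, n = 3 each), again within their spread. Mean FPKM differed between subunits present once in each ring. Within the alpha ring the tested members ranged from 12.03 for Psma1 to 56.2 for Psma4 in BMDM. In BSM they ranged from 3.01 for Psma2 to 16.1 for Psma4. Psma3 and Psma5 were under the filter, and Psma4 also has a copy. Differences between genes were not tested.

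Of 6 tested partners of the proteasome without a Psm symbol, 4 were higher in BMDM, against 45.3% of all genes. Shfm1, which encodes the small lid subunit Sem1, had FPKM 10.8, 20.6 and 13.4 in BMDM and 0.508, 1.32 and 1.68 in BSM (log2 fold change 2.87, SE 0.33, adjusted p = 0.000311, limma). Pomp, the chaperone that matures the beta ring, had 120, 140 and 120 in BMDM and 12.2, 27.7 and 22.3 in BSM (log2 fold change 2.62, SE 0.31, adjusted p = 0.000378, limma). Both estimates lay above those of the tested 19S members in FPKM. Uchl5, a deubiquitinase of the cap, changed by 1.64, and Txnl1, a thioredoxin bound to it, by 1.05. Under quantile normalization Txnl1 did not pass (0.27, adjusted p = 0.395, limma). Usp14, another deubiquitinase of the cap, had a log2 fold change of 0.17 (adjusted p = 0.562, limma) and was lower in BMDM under quantile normalization (-0.59, adjusted p = 0.0476, limma).

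Upstream of the proteasome, Uba1, the main ubiquitin-activating enzyme, was higher in BMDM, with a log2 fold change of 2.14 in FPKM. Of 5 tested genes around Nfe2l1, the factor that induces proteasome genes when the proteasome is impaired, 1 was higher in BMDM (Vcp, 0.76), against 45.3% of all genes, with a sign that turned under quantile normalization. Of 7 tested genes for peptide transport and loading on MHC class I, 3 were higher in BMDM, a share no larger than the 45.3% of all genes. They were the transporter gene Tap1 by 1.47, Tapbp, which tethers it, by 1.18, and B2m, the light chain of MHC class I, by 1.06. None of the 3 passed under quantile normalization, with adjusted p of 0.0597, 0.125 and 0.588 (limma).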

How the data were processed

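RNA-seq libraries of 3 BMDM and 3 BSM pools were sequenced as paired reads of 100 bases. Per the submitters' processing notes, the authors used CASAVA 1.7.0, Bowtie 0.12.7, TopHat 1.3.1 and Cufflinks 1.0.3 with mouse build mm9. They deposited FPKM values per gene (Cufflinks) and, in a second table, ALEXA-Seq expression signal values per Ensembl gene, whose unit is not given in the sources used here. Neither table holds counts, and the read totals that the study gives were not used here, so no counting interval is given. The smallest steps between low ALEXA-Seq values were 0.863 to 1.12 times those of BMDM replicate 1 in the other 5 libraries. Use of strand is not given, so that members overlapping another gene (Psmb9 with Tap1, Psmb8, Psmb7, Psmc3, Psmd13) are uncertain.

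Groups came from the sample labels. Genes reaching FPKM 3 in at least 1 library (6364) were tested with limma 3.58.1 (R 4.3.3, empirical Bayes with trend) on log2(FPKM + 1), which understates changes of low genes, with Benjamini-Hochberg adjustment over all of them and a threshold of 0.05. As many ALEXA-Seq genes were taken by highest value and tested likewise. The procedure was tested on simulated data. Ratios were compared by exact two-sided permutation. Copies were searched with blastn 2.17.0. Members, lists and tests were chosen with earlier results of these data known. Named genes were the catalytic subunits, caps, inhibitor and chaperones, the largest and smallest change of each other subcomplex, members under the FPKM minimum, and up to 4 genes of each other list. Psmb1, Psmb4, Psmc1, Psmc3, Psmc4, Psmd11, Psmd13 and Psmd14 were named after their values were seen. Alternatives were another pseudocount, filter, scaling, trend and weights, the replicate block and each library left out. The sum with copies was chosen after seeing the data. Some genes of the other lists are not reported here.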

Additional observations from a re-analysis of the deposited data

How the results depend on the processing

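The count of members higher in BMDM (27 of 36 in FPKM) was 15 under upper quartile scaling, 15 under quantile normalization and 4 with equal sums, where the median log2 fold change was 0.89, 0.72 and 0.49, against 1.88 with a pseudocount of 0.1. Leaving out each library gave 21 to 30 members in FPKM (median 1.34 to 1.64) and 16 to 33 in ALEXA-Seq values, with 17 without BMDM replicate 2 and 16 without BMDM replicate 3. With every ALEXA-Seq gene above 0 tested, 18 of 50 passed. The count higher in BSM was 0 in each of these fits. Direction reversed for Psmb6 (upper quartile -0.13, quantile -0.27, equal sums -0.48, ALEXA-Seq quantile -0.18), Psmc6 (-0.40, -0.40 and -0.79 in FPKM, and in ALEXA-Seq values 0.10 without BMDM replicate 1, leave-one-out -0.33 to 0.40), and, with equal sums, Psmc2 (-0.32), Psmc3 (-0.43), Psmd1 (-0.27), Psmd14 (-0.16) and Vcp (-0.41, and -0.019 under quantile normalization). Psmf1 reversed without BMDM replicate 2 (0.16 in FPKM, 0.056 in ALEXA-Seq values) and without BSM replicate 2 (0.03 in FPKM), with leave-one-out ranges of -0.44 to 0.16 in FPKM and -0.62 to 0.056 in ALEXA-Seq values. Ratio differences reversed for Psmb8 to Psmb5 (0.86 with a pseudocount of 1, 0.36 by medians, leave-one-out -2.01 to 0.53), Psmb10 to Psmb7 (-0.45 with the pseudocount), Psme1 to Psme3 (0.34 by medians, leave-one-out -0.74 to 0.45), Psme2 to Psme3 (-1.92 with the pseudocount, -0.47 with copies added, leave-one-out -0.37 to 0.99) and Psme1 to Psme2 (1.71 with the pseudocount, 0.17 with copies added). The leave-one-out range was 1.29 to 1.94 for Psmb9 to Psmb6, 0.72 to 2.60 for Psmb10 to Psmb7 and -1.31 to -0.24 for Psme1 to Psme2. The difference in the share of summed FPKM, 0.0758 percentage points, was 0.157 without the mitochondrial ribosomal RNA genes and 0.0594 to 0.0915 with a library left out. The cause of these changes was not tested.

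With the replicate number as a block, 29 of 36 members passed in FPKM and 24 of 40 in ALEXA-Seq values. Whether same-numbered libraries were paired is not given by the labels, beyond their shared sex. Their deviations correlated at -0.02, -0.008 and 0.13 in FPKM, against -0.11 to 0.07 for unlike numbers. In ALEXA-Seq values they correlated at 0.02, 0.04 and 0.10, against -0.08 to 0.02. With 3 libraries a group these values cannot decide whether the samples were paired. Groups of 3 limit what low members can show, and without counts in the tables the limit set by depth was not computed.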

Other observations

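Promoters of 42 proteasome genes, 45 in all, were found in the RefSeq table of starts (GRCm38.p6). In the 250 bases before the start, searched on both strands, the interferon-stimulated response element core GAAANNGAAA occurred in 3 of the 45 (Psmb3, Psmd4 and Psmd9), against 2.98% of 32851 promoters. The antioxidant response element core TGACNNNGC occurred in 5 of the 45 (Psmb5, Psmb6, Psmc6, Psmd12 and Psmd9), against 10.2%. These matches are letters in a window and were not compared with expression.

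Psmc3ip, a recombination factor, had FPKM 0.671, 0.680 and 0.804 in BMDM and 0.421, 0.0118 and 0.0514 in BSM, with BSM replicate 1 as the highest of its group.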
